A study of Oryza sativa with 6 samples.

Results

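The rice genes named RH, a name given in plants to DEAD-box RNA helicases, were followed in rice (Oryza sativa), in uppermost internodes sampled young. The study compared 3 arrays of the wild type cultivar Nipponbare with 3 arrays of coi1-13. The labels call coi1-13 only a mutant; what the mutation does to its gene, and whether the line shares the Nipponbare background, is not said. The labels call the arrays of each genotype biological replicates and give no treatment and no plant age. COI1 proteins are jasmonate receptors. Members were taken by name: every gene with RH and a number as its symbol or synonym, with all probe sets that the array annotation assigns to that gene alone. Such a name was carried by 7 genes of the gene table, and 4 of them were read by 8 single-gene probe sets, out of 17905 genes and 22436 single-gene probe sets in all. The group came to attention because RH2 was selected on its low signal in coi1-13. Values of RH2 are therefore given as a description with no test, while the other genes entered by name, whatever their values.

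DEAD-box helicases use ATP to pry apart short stretches of double-stranded RNA and to clamp or strip proteins on RNA, and they act in splicing, ribosome assembly, translation and RNA decay. One branch holds the eIF4A proteins: eIF4A itself unwinds the leader of mRNAs for translation, while its nuclear relative eIF4A-III is the clamp of the exon junction complex, which splicing leaves on mRNA together with MAGO and Y14 proteins. In rice RH34 (synonym EIF4A3B) is an eIF4A-III gene, and RH10, also called TOGR1, encodes a nucleolar helicase that aids ribosomal RNA processing and growth in heat. RH17 is another gene with a name of the rice RH series.

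The name RH2 belonged to 2 gene records, and the one on the array was not the eIF4A-III gene. EIF4A3A, which has the synonyms OsRH2 and eIF4A-III, is one of 3 RH-named genes to which the annotation gave no probe set, so its transcript was not analysed here. The probe set that carried the name RH2 is assigned to LOC4324018, whose other synonyms are locus and clone numbers and include no helicase name. In the RefSeq assembly ASM3414082v1 the gene model of LOC4324018 is 761 bases long, against 3528 bases for EIF4A3A and 4511, 4747 and 3579 bases for RH34, RH10 and RH17. The gene records of RH3 and RH1, neither of them with a probe set, are 571 and 878 bases long and likewise carry no helicase name. RH3 lies 3 genes before LOC4324018 in the gene order of chromosome 1 and shares its clone name. Among the genes read, the gene table itself thus gives a helicase name to RH34 alone. RH10 carries the name TOGR1, and RH17 only RH names besides locus and clone numbers. The RH2 probe set is called LOC4324018 from here on, and no role is given to it.

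Of the 8 probe sets, 7 were brighter on every array than each of 33 negative controls, which include probe sets for rice blast fungus genes. The brightest control reached a log2 signal of 4.93 to 5.11 in wild type and 5.26 to 5.56 in coi1-13. Pearson's r between arrays, taken over tested probe sets that are not independent of each other, was 0.977 to 0.98 for arrays of a genotype and 0.943 to 0.946 for arrays of different genotypes. The precision of every value was limited by 3 arrays per genotype.

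LOC4324018 had log2 signals of 9.59, 9.81 and 9.67 on the wild type arrays and 7.17, 6.82 and 7.05 on the coi1-13 arrays. All 3 coi1-13 arrays were low, the groups were far from overlapping, and the signal in coi1-13 stayed above the negative controls. The means were 9.69 ± 0.11 (SD, n = 3) and 7.01 ± 0.18 (SD, n = 3), a 6.40-fold lower signal in coi1-13 and a log2 difference of -2.68. Of the 34355 tested probe sets, the 60% with the highest mean signal, 204 (0.594%) fell at least as far. The difference stayed between -2.75 and -2.58 when any 1 array was left out. Since LOC4324018 was selected on this difference, neither the share nor the range is a test of it.

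**Figure D1:**
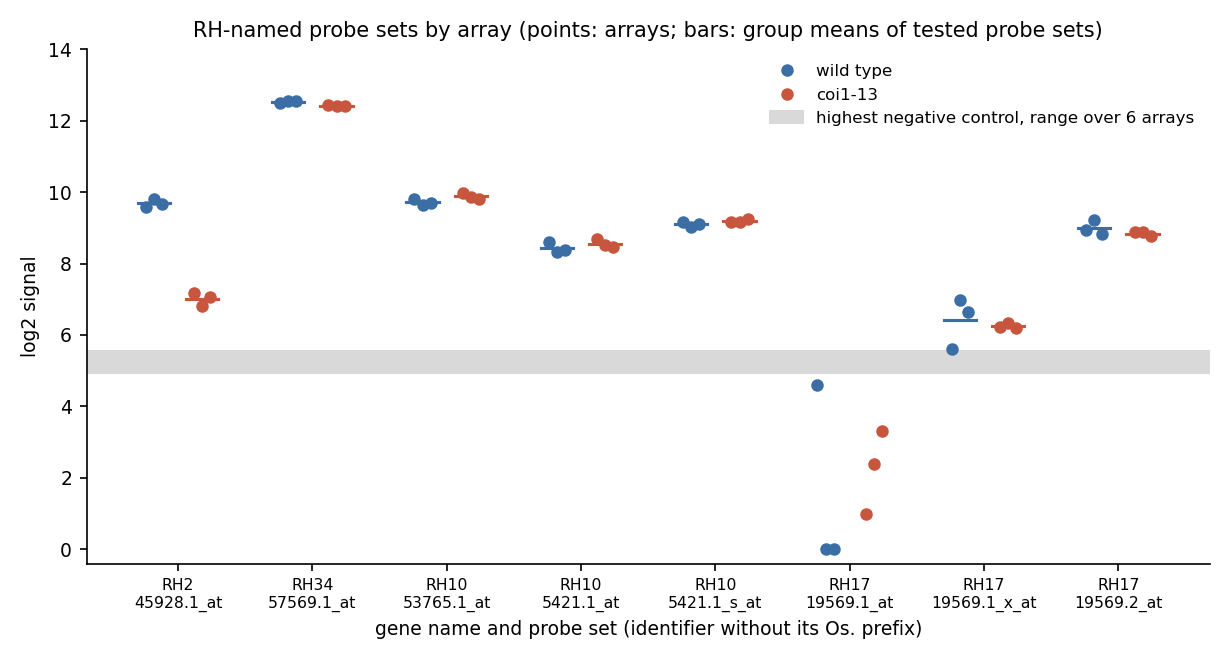
Log2 signal (vertical axis) of the 8 RH-named probe sets on 3 wild type and 3 coi1-13 arrays; points are arrays, short bars are group means of the tested probe sets, and the grey band spans the highest negative control of the 6 arrays, 4.93 to 5.56. The coi1-13 points of RH2 (LOC4324018) lie at 6.82 to 7.17, below its wild type points at 9.59 to 9.81, while the group means of the other 6 tested probe sets differ by at most 0.17; the wild type points of the RH17 probe set ending in _x_at are scattered from 5.60 to 6.99.

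The other RH genes differed little. Among the 6 tested probe sets other than LOC4324018, 1 was called lower and 0 were called higher (limma, Benjamini-Hochberg adjusted p under 0.05), against 19.4% called lower, 16.5% called higher and 35.9% called in either direction among all tested probe sets. At an unadjusted p under 0.05, 1 was lower and 1 higher. Their log2 differences ran from -0.16 to 0.17 with a median of -0.02, where all tested probe sets had a median of -0.01 and a median size of 0.25. The groups did not overlap for 1 of the 6, against 47.5% of all tested probe sets. These shares are not matched for brightness. The tested probe sets reach down to a mean log2 signal of 4.37, under the brightest negative control, while the 6 had means of 6.33 to 12.48. LOC4324018 was also set against the median of these 6 on the same array. It was higher by 0.54 to 0.7 log2 units on wild type arrays and differed by -2.19 to -1.85 on coi1-13 arrays. Since LOC4324018 was selected on its low signal in coi1-13, this contrast is a description and no test.

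RH34, the eIF4A-III gene read by the array, was the one of these genes called lower. It had log2 signals of 12.49, 12.56 and 12.55 in wild type and 12.43, 12.42 and 12.40 in coi1-13. The groups did not overlap, but they lay within a narrow range. The means were 12.53 ± 0.04 and 12.42 ± 0.01 (SD, n = 3 each), a log2 difference of -0.12 ± 0.03 (SE), or a signal 0.922 times that of wild type with a 95% interval of 0.874 to 0.973 (limma, adjusted p = 0.0226). The call was lost without wild type replicate 2 or 3 and without coi1-13 replicate 2 or 3, at adjusted p-values from 0.052 to 0.0769, and without the variance trend (adjusted p = 0.118). EIF4A3A and RH34 encode closely similar proteins, and how far the RH34 probes also read EIF4A3A was not tested.

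RH10 was read by 3 probe sets, none of them called. The brightest stood at 9.81, 9.64 and 9.70 in wild type and 9.98, 9.87 and 9.80 in coi1-13. Its groups touched, since the lowest coi1-13 array lay just under the highest wild type array. The log2 difference was 0.17 ± 0.07 (SE; 95% interval 0.02 to 0.32; limma, adjusted p = 0.0841), and it was called only without wild type replicate 1 (0.212, adjusted p = 0.0488). Of the other probe sets, one ending in _at and one in _s_at, the signals differed by 0.12 (95% interval -0.11 to 0.35; adjusted p = 0.415) and 0.09 (-0.07 to 0.24; adjusted p = 0.379), and both turned to values just under 0 when each array was centred on its median. On Affymetrix arrays the ending _s_at marks probes shared by several transcripts. A response of the dimmer probe sets that differs from that of the brightest was not detected: the differences of their log2 differences were -0.05 (95% interval -0.24 to 0.15; limma, adjusted p = 0.832) and -0.08 (-0.32 to 0.16; adjusted p = 0.747), where 4.21% of 3516 such pairs of probe sets over the whole array were called. Over the 3 probe sets the 95% intervals of the fold, coi1-13 over wild type, reached from 0.926 to 1.28.

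RH17 was read by 3 probe sets of unequal brightness. The brightest stood at 8.94, 9.22 and 8.84 in wild type and 8.87, 8.87 and 8.77 in coi1-13. The groups overlapped, with wild type replicate 2 the highest array. The log2 difference was -0.16 ± 0.10 (SE; 95% interval -0.39 to 0.06; limma, adjusted p = 0.237). A dimmer one ending in _x_at, which marks probes that may match other sequences, read 5.60, 6.99 and 6.65 in wild type and 6.21, 6.34 and 6.20 in coi1-13. Its wild type arrays were too scattered to give a narrow value (-0.16, 95% interval -0.88 to 0.56; adjusted p = 0.745), and the sign turned without wild type replicate 2 (0.127). The last lay under the brightest control on every array, with values of 4.60, 0.00 and 0.00 in wild type and 1.00, 2.39 and 3.32 in coi1-13, so it holds no measurement of RH17 and was not tested.

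**Figure D2:**
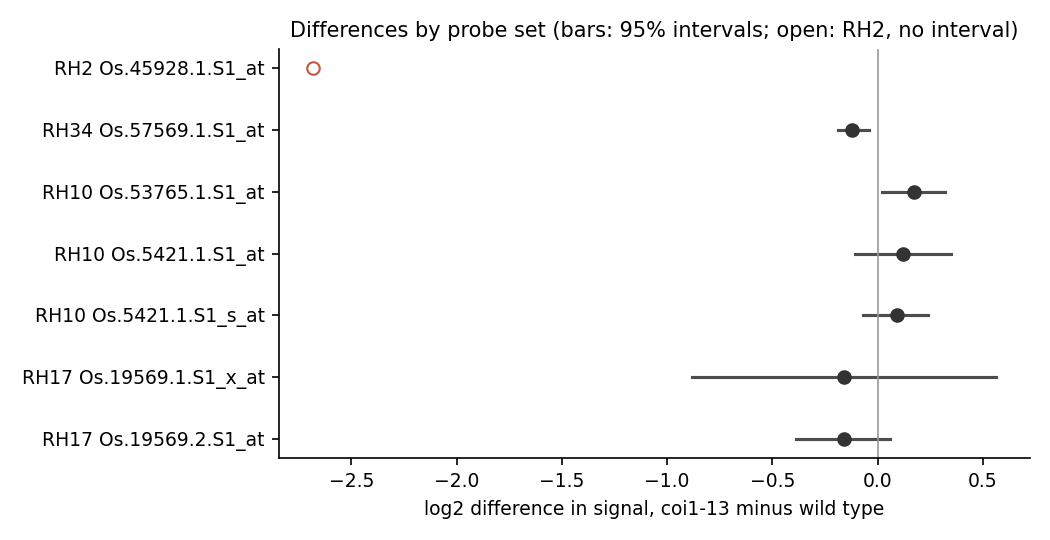
Log2 difference in signal, coi1-13 minus wild type (horizontal axis), for the 7 tested RH-named probe sets; filled points carry 95% intervals from limma, and the open point of RH2 (LOC4324018) at -2.68 has none because it was selected on this value. The 6 filled points lie between -0.16 and 0.17.

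Because LOC4324018 stood apart, the genes around it were read in the order of the same gene table, 5 on each side that have a probe set of their own, a choice made after its value was seen. Of their 11 probe sets, 2 were called higher, 3 lower and 6 were not called, numbers near the 16.5% higher and 19.4% lower of all tested probe sets. The nearest with a probe set, the non-coding RNA gene LOC4324052, stood at 5.81, 5.55 and 5.64 in wild type and 4.25, 5.32 and 2.85 in coi1-13. It was low and scattered in coi1-13, above the negative controls there on 1 array, and was not called (limma, adjusted p = 0.0697). BGLU1, a beta-glucosidase gene, lay under the brightest control on every wild type array and read 5.45, 5.68 and 5.57 in coi1-13 (adjusted p = 0.0664). Farther out, both probe sets of LOC4324022 fell, by 0.94 and 0.80 on the log2 scale (limma, adjusted p = 0.00141 and 0.00234). Both count among the 3 lower calls. The one that fell by 0.80 and the BGLU1 probe set end in _x_at, so their probes may match other sequences. LOC4324047 fell by 0.15 (limma, adjusted p = 0.0269). LOC4324048 and LOC4324024 rose by 0.94 and 1.27 (adjusted p = 2.32e-08 and 0.000111), and MKK1, a MAP kinase kinase gene, differed by -0.06 (adjusted p = 0.252). No probe set among the 11 fell as far as LOC4324018, which was selected for its fall, so this is a description and no test.

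**Figure D3:**
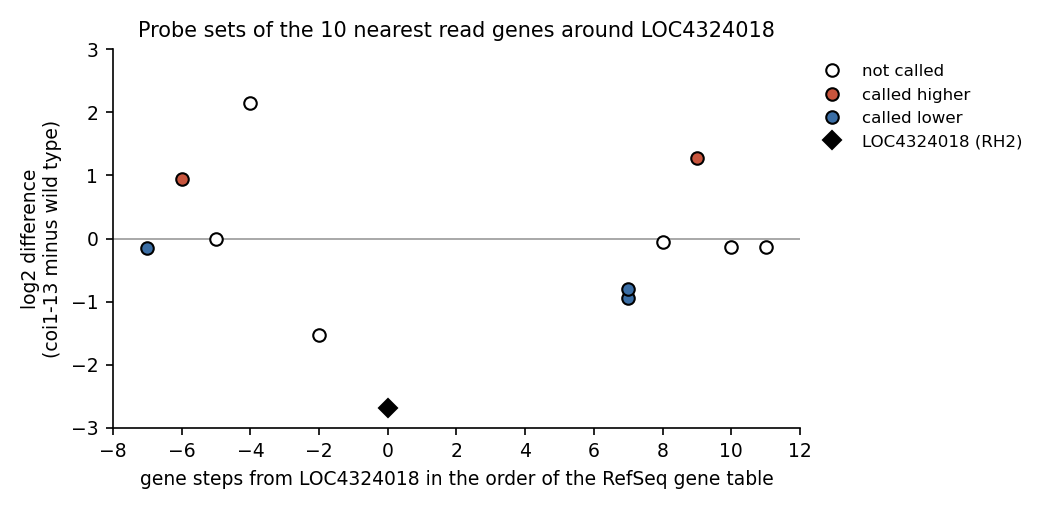
Log2 difference in signal, coi1-13 minus wild type (vertical axis), of the 11 probe sets of the 10 nearest genes with a probe set around LOC4324018 (diamond, -2.68), by gene steps away in the order of the RefSeq gene table (horizontal axis). The neighbours run from -1.53 to 2.15, with calls in both directions.

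Partner genes of eIF4A-III differed little. Of 3 exon junction complex genes with a probe set, 2 fell and none rose, each gene taken by its brightest probe set, where 26.7% of all 16706 genes so read fell and 21.2% rose. MAGO1 stood at 9.55, 9.59 and 9.60 in wild type and 9.38, 9.47 and 9.35 in coi1-13 (limma, adjusted p = 0.0397). This MAGO1 probe set ends in _x_at, so its probes may match other sequences. The dimmer MAGO1 probe set, which ends in _at, did not pass (-0.09, limma, adjusted p = 0.42). Y14B, the gene of the partner that binds MAGO, read 9.44, 9.16 and 9.41 against 9.04, 9.09 and 9.14 (adjusted p = 0.0401). The groups of both genes were apart by a small margin, with log2 differences of -0.18 and -0.24. The calls were kept under 3 and 4 of 12 alternatives (adjusted p up to 0.117 and 0.139), and none of the 3 genes was called with quantile normalization, without the filter or the variance trend, or without coi1-13 replicate 1 or 3 or wild type replicate 1 or 3. MAGO2 differed by -0.01 (adjusted p = 0.855).

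The cytoplasmic relatives and the other translation factors were mixed. Of 6 such genes, 1 rose, 1 fell and 4 were not called (3 fell under median centring, 2 with quantile normalization or the stricter filter, and 0 without the variance trend, without the filter, without coi1-13 replicate 1 or 2 and without any 1 of the wild type replicates), beside 26.7% of all genes that fell and 21.2% that rose. The cytoplasmic helicase gene eIF4A-1 fell by 0.20 on the log2 scale, from 13.63, 13.62 and 13.63 to 13.32, 13.34 and 13.61. The last of its coi1-13 arrays was almost at the wild type level, and the call (limma, adjusted p = 0.0333) was kept under 5 of 12 alternatives (adjusted p up to 0.161). A second eIF4A-1 probe set, which is dimmer, fell by 0.32 (limma, adjusted p = 0.000425). It ends in _s_at, and how far it also reads other transcripts was not tested. The dimmest was not called (-0.23, limma, adjusted p = 0.579). The other eIF4A gene, EIF-4A-3, which the gene table also names eIF4A-2, differed by -0.07 (adjusted p = 0.164). EIF3K, a subunit gene of initiation factor eIF3, rose 1.70-fold, from 11.89, 11.90 and 11.86 to 12.53, 12.68 and 12.74 (adjusted p = 1.06e-06).

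Lower calls outnumbered higher ones among splicing and small RNA genes, as they did over all genes read, where 26.7% fell and 21.2% rose. Of 10 splicing genes, 4 fell, 1 rose and 5 were not called, with a median of -0.11; 7 fell under median centring and 2 without the variance trend or without coi1-13 replicate 2. The SR protein genes SC34 and RSZ23 fell by 0.26 and 0.28 (limma, adjusted p = 0.000203 and 0.00109), and the spliceosome gene PRP19 by 0.19 (adjusted p = 0.0204, and up to 0.0903 over 12 alternatives). U2AF35A, which encodes the small subunit of a factor that recognises the end of introns, rose 1.47-fold, from 9.35, 9.30 and 9.29 to 9.76, 10.06 and 9.81 (adjusted p = 0.000289).

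Of 18 genes for Dicer, Argonaute and RNA-dependent RNA polymerase proteins and a cofactor, 10 fell, none rose and 8 were not called, beside 26.7% lower and 21.2% higher over all genes, with a median of -0.20 (14 fell under median centring and 6 without the variance trend). DCL2A, a Dicer gene whose product joins a helicase domain to its RNase domains, had the largest difference of them, from 11.62, 11.48 and 11.47 to 10.27, 10.29 and 10.34, a 2.33-fold lower signal (limma, adjusted p = 4.67e-08). A dimmer DCL2A probe set did not pass (-0.54, limma, adjusted p = 0.163). Both DCL2A probe sets end in _s_at, and how far they also read other transcripts was not tested. SHL2, an RNA-dependent RNA polymerase gene of trans-acting siRNA synthesis, fell 2.12-fold, from 9.47, 9.39 and 9.43 to 8.13, 8.53 and 8.38 (adjusted p = 1.24e-05). The Argonaute genes AGO1C and AGO4B fell by 0.40 and 0.25 (adjusted p = 7.26e-05 and 0.00103).

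**Figure D4:**
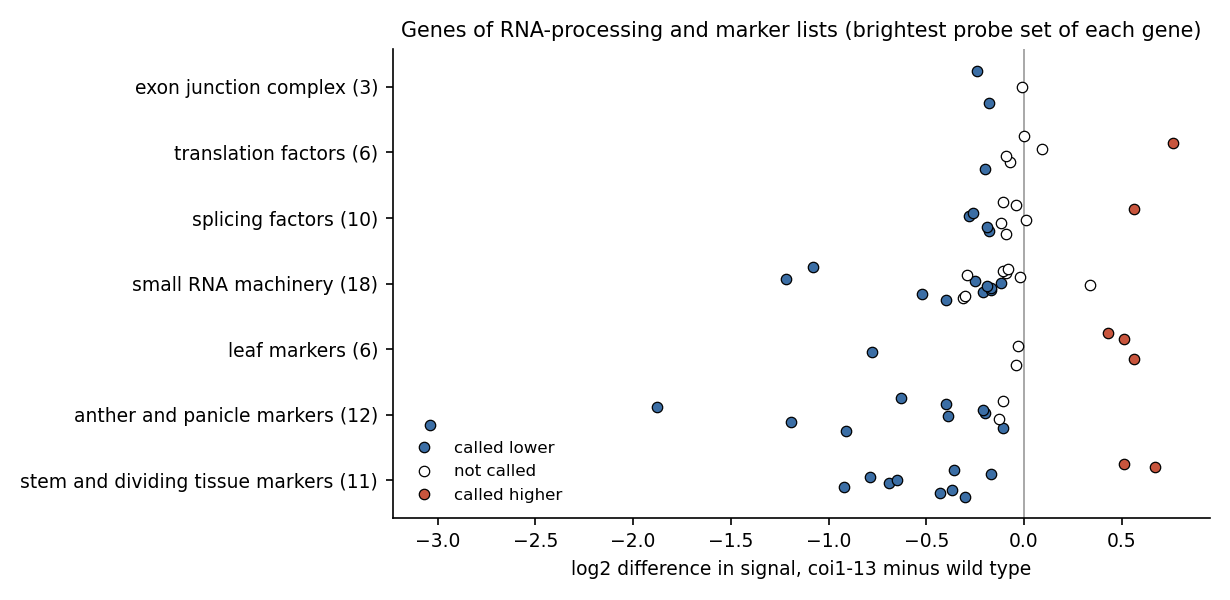
Log2 difference in signal, coi1-13 minus wild type (horizontal axis), of each tested gene, by its brightest probe set, in 4 lists of RNA-processing genes and 3 lists of tissue markers; list sizes are in brackets and fill marks the limma call. All called points of the small RNA list and of the anther and panicle list, 10 in each, lie below 0, and the 2 farthest left in the small RNA list are DCL2A and SHL2 at -1.22 and -1.08.

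Tissue markers moved on the same arrays. Of 11 stem and dividing tissue genes with a probe set, 10 were above the negative controls on every array. Among them were the stem meristem gene OSH1 and the wall genes CESA4, CESA7 and CESA9, which all fell. The OSH genes were mixed: OSH6 and OSH71 rose by 0.67 and 0.51 on the log2 scale, while OSH1 and OSH43 fell by 0.17 and 0.36. In this list 9 genes fell and only these 2 rose, beside 26.7% and 21.2% over all genes, shares that also stand beside the next counts. Its summed linear signal was 28673 to 30238 in wild type and 22844 to 24171 in coi1-13. Anther and panicle genes were also read: 11 of 12 were above the negative controls on every array, and each of the 12 on at least 1 array. Their summed signal was 66339 to 67932 in wild type and 52738 to 56414 in coi1-13, with 10 that fell and none that rose. On the log2 scale the anther and panicle genes ran from -3.04 (CYP703A3), farther than LOC4324018, to -0.11 (C6). The brightest genes weigh most in a summed signal. Leaf genes summed to 55914 to 57956 and 65740 to 68188, with 3 of 6 that rose and 1 that fell. Over the alternatives, 7 to 9 stem and dividing tissue genes, 9 to 12 anther and panicle genes and 1 to 2 leaf genes fell. The counts that rose did not change. The calls of OSH1 and C6 were kept under 9 and 4 of 12 alternatives. The part of these tissues in the differences of LOC4324018, RH34 and the small RNA genes was not tested, and in whole tissue fewer cells of a type and less RNA per cell cannot be told apart.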

How the data were processed

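Biotin-labelled cRNA from total RNA of 6 samples was read on Affymetrix rice arrays, per the labels. Deposited values were log2 signals for each of 57381 probe sets, made with GCOS 1.4 per the submitters' processing notes. The scale was judged from the values: as powers of 2 their 2% trimmed mean was 500.1 on every array.

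Probe sets were named through the platform annotation and a RefSeq gene table (assembly ASM3414082v1), used for names, gene order and gene model lengths. Of 57258 probe sets other than 123 controls, 22436 had 1 gene, 95 several and 34727 none in that annotation. Using limma 3.58.1 (R 4.3.3; lmFit, then eBayes with a variance trend), coi1-13 was tested against wild type without a block for 34355 probe sets, the 60% with the highest mean log2 signal (at least 4.37), at a Benjamini-Hochberg adjusted p under 0.05. RH2 was in this fit with the other probe sets, but no test of it is given. Pairs of probe sets of 1 gene were fitted as differences on each array. Folds are powers of 2 of log2 differences. The fit was tested on simulated data.

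The members and lists were chosen with earlier results of these data known. The naming rule took every RH gene and up to 4 called genes of each list by smallest p. MAGO2, EIF-4A-3, RRP46, SUV3, LOC4324018's neighbours and the marker genes were named outside it. Symbol matches of other or uncertain protein families (among them SR14-3-3, RS2, LHS1 and SCL7) were left out of the RNA lists. Alternatives were median centring, quantile normalization, other filters, no trend, a replicate block, a 2-fold criterion, 1 probe set per gene and leaving out each array.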

Additional observations from a re-analysis of the deposited data

How the results depend on the processing

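Among the RH-named probe sets other than LOC4324018, 1 (RH34) was lower and 0 higher as reported. With 1 array left out, between 0 and 1 were lower and between 0 and 1 higher; the call gained was the brightest probe set of RH10 (0.212, adjusted p = 0.0488), in the absence of wild type replicate 1. The count of lower probe sets was 0 when at least 2-fold was demanded, which by construction adds no call, or with no variance trend in the eBayes step, where the cause was not tested. LOC4324018 was selected on this difference, so it is left out of these RH counts. RH34 kept its direction under all 12 alternatives (-0.237 to -0.105) and its call under 7. The difference of LOC4324018 ran from -2.75 to -2.58 with 1 array left out and from -2.80 to -2.67 otherwise. Median centring lowered the median log2 difference over the array from -0.01 to -0.13, and the 2 dimmer RH10 probe sets to -1.53e-05 and -0.0334. The _x_at probe set of RH17 ran from -0.569 to 0.127 with 1 array left out. Taking 1 probe set per gene left RH34 as the 1 gene lower and 0 higher, LOC4324018 aside. Over the whole array, 5679 probe sets were higher and 6668 lower, 3721 and 9522 under median centring (28.1% of calls higher, against 46.0%), and 1188 and 686 when 2-fold was required. Same-numbered arrays of the genotypes did not deviate together (r of -0.00291, 0.00109 and 0.000416 for numbers 1, 2 and 3). No pairing by number was thus seen, which cannot show whether such arrays shared a batch. With the replicate block 5481 were higher and 6336 lower. RH34 then had an adjusted p of 0.0435 (limma) and was the 1 called lower among the RH probe sets other than LOC4324018. Signals close to the negative controls limit what the dimmer RH17 probe sets can show.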

Other observations

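The genes around the other RH genes, 5 on each side with a probe set, were also read, and chosen after the values were seen. Around RH34, 2 of 9 tested probe sets were called higher and 3 lower (limma, adjusted p under 0.05), with log2 differences from -0.92 to 0.29. Around RH10, 1 of 13 was higher and 1 lower (-0.52 to 0.43), and around RH17, 2 of 10 were higher and 3 lower (-0.35 to 0.52). The median size of the difference was 0.20, 0.14 and 0.15 around these genes, against 0.80 around LOC4324018 and 0.25 over all tested probe sets. The value around LOC4324018 counts both probe sets of LOC4324022. Its largest differences, of LOC4324052 (-1.53) and BGLU1 (2.15), were not called and include arrays under the brightest control. Whether the regions differ was not tested.

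RNA decay and other helicase lists matched 1 gene each outside the RH names. RRP46, an exosome subunit gene, differed by -0.03 (limma, adjusted p = 0.768). SUV3, another RNA and DNA helicase gene, differed by 0.13 (adjusted p = 0.385).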
